A study of Mus musculus with 20 samples.

Results

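The response to TCPOBOP was compared between livers lacking both the constitutive androstane receptor (CAR) and the pregnane X receptor (PXR) and livers lacking CAR alone, so that the 2 groups differed, per their labels, in PXR. The arrays were chosen by sample title. They comprised 4 double-deficient arrays (CARPXRKO 1 to 4) and 6 CAR-deficient arrays (CARKO 1 to 6) of the 20 in the series, whose other 10 held 4 PXR-deficient (PXRKO) and 6 wild type (WT) livers. All mice, the controls included, were C57BL/6J males aged 9 to 12 weeks. On each array the Cy5 channel held liver RNA taken 12 h after an intraperitoneal injection of 10 mg/kg TCPOBOP. The Cy3 channel held RNA pooled from 6 livers of the same genotype whose animals had received 5% DMSO in corn oil. The response of a probe is the log2 ratio of treated liver over pool, so 0 means no change and 1 means a doubling. The difference of responses is the mean over CARPXRKO arrays minus the mean over CARKO arrays.

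CAR and PXR are nuclear receptors that sense drugs and other foreign compounds in hepatocytes and switch on genes of oxidation, conjugation and export. Their target genes overlap, and both receptors also act on genes of cholesterol, bile acid and energy metabolism. TCPOBOP is a potent agonist of mouse CAR. The array used here, Sterolgene V1, is a small array built around these pathways. A comparison on the CAR-deficient background addresses what PXR loss adds when the receptor that TCPOBOP is known for is already missing.

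Each array carried 120 mouse probes in 3 spots each. The files and reference tables used here do not pair the probe identifiers with genes or sequences. The 2 deleted genes, the liver marker genes and the fixed gene lists were therefore not examined, and identifiers are given for at most 2 probes that were higher and 2 that were lower, plus Mm038 and Mm039. RNA came from whole liver, where fewer cells of a type and less RNA per cell cannot be told apart. The median Cy5 signal over mouse spots was 439 to 902.5 intensity units on CARPXRKO arrays and 226 to 907 on CARKO arrays, and the median Cy3 signal was 490 to 790.5 on CARPXRKO arrays and 403.5 to 978.5 on CARKO arrays. The local Cy3 background had medians of 256 to 424 on CARPXRKO arrays and 121 to 303.5 on CARKO arrays. The pool signal was well above background for 35 to 73 probes on CARPXRKO arrays and for 65 to 94 on CARKO arrays. The 4 pairs of spiked ratio controls spanned 3.05 to 3.58 log2 units on CARPXRKO arrays and 3.90 to 4.08 on CARKO arrays, with no overlap. Their level also differed. Before normalization, the mean log2 ratio of the odd-numbered controls was −0.89 to −0.59 on CARPXRKO arrays and −2.80 to −1.86 on CARKO arrays. That of the even-numbered controls was 2.45 to 2.75 on CARPXRKO arrays and 1.20 to 2.11 on CARKO arrays. The part of these array properties in the results below was not tested, and genotype, pool and background cannot be told apart in this design. Precision is limited by the number of arrays.

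The test covered the 82 probes measured on 3 or more arrays in each genotype, of which 10 had a higher and 8 a lower response in CARPXRKO than in CARKO (limma, Benjamini-Hochberg adjusted p under 0.05). This is 22.0% of the probes tested, 12.2% in the higher and 9.76% in the lower direction. Over all 82 probes the differences had a median of 0.02 on the log2 scale, quartiles of −0.30 and 0.18, and a range of −1.34 to 0.97. The 10 higher probes differed by 0.33 to 0.97 (median 0.63) and the 8 lower probes by −1.14 to −0.41 (median −0.67). Without the arrays whose protocol text conflicts with their titles (CARPXRKO 3, CARKO 3, WT 3 and WT 5, where the text for the treated channel is that of the vehicle pool), 10 of the 18 probes passed and 18 of 18 kept their direction. The pool of CARPXRKO 3 is also labelled PXR deficient in one field and CAR/PXR in another. Without CARPXRKO 3 alone, 14 of the 18 passed.

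The largest positive difference was that of Mm062. Its log2 ratios were 0.41, 0.54, 0.75 and 0.76 on the 4 CARPXRKO arrays, and on the 6 CARKO arrays they ran from −0.79 over a median of −0.34 to −0.03. All CARPXRKO values lay above 0 and all CARKO values below it, so the groups did not overlap. The means were 0.62 ± 0.17 in CARPXRKO (SD, n = 4) and −0.35 ± 0.29 in CARKO (SD, n = 6), a difference of 0.97 ± 0.15 (SE, limma adjusted p = 0.000202). An exact permutation test over the 10 arrays gave an unadjusted two-sided p of 0.00476, the smallest that the 210 splits allow. The exact p of this probe and of those below is a description, since the probes were picked for their difference. Among the arrays with odd replicate numbers, which lie in one slide position, the difference was 0.84 (adjusted p = 0.0964), and among the even-numbered ones in the other position 1.09 (adjusted p = 0.0231).

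Mm073 followed, with log2 ratios of 0.44, 0.32, 0.62 and 0.65 on the CARPXRKO arrays. On the CARKO arrays its lowest value was −0.63, its median −0.32 and its highest 0.09, below every CARPXRKO value. The difference was 0.77 ± 0.14 (SE, adjusted p = 0.000889; unadjusted exact permutation p = 0.00952). In the pool channel it was detected well above background on 1 of the 4 CARPXRKO and all 6 CARKO arrays, so the CARPXRKO ratios rest on a pool signal near background and are not measured folds. Within the odd-numbered slide position the difference was 0.58 (adjusted p = 0.1704) and within the even-numbered one 0.96 (adjusted p = 0.0231).

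Mm054 had the largest negative difference past the threshold. Its log2 ratios were −0.42, −0.47, −0.57 and −0.72 on the CARPXRKO arrays. On the CARKO arrays they ran from −0.04 over a median of 0.61 to 1.25. The groups did not overlap, and 5 of the 6 CARKO arrays lay above 0. The means were −0.54 ± 0.13 in CARPXRKO (SD, n = 4) and 0.59 ± 0.44 in CARKO (SD, n = 6), a difference of −1.14 ± 0.19 (SE, adjusted p = 0.000421; unadjusted exact permutation p = 0.00952). The difference was −0.996 within the odd-numbered slide position (adjusted p = 0.2452) and −1.28 within the even-numbered one (adjusted p = 0.00687).

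Mm037 had the second lowest difference among the probes past the threshold, with log2 ratios of −0.42, −0.38, −0.61 and −1.35 on the CARPXRKO arrays. On the CARKO arrays its values lay between −0.07 and 0.47, with a median of 0.31. Its groups did not overlap, and CARPXRKO 4 was the lowest of the 10 arrays. The difference of −0.96 ± 0.34 (SE) passed narrowly (adjusted p = 0.0479; unadjusted exact permutation p = 0.00476). Of 32 alternative runs it kept its direction in 32 and passed in 12. One of these was the limma fit of the CARPXRKO and CARKO arrays only (adjusted p = 0.0044). The call ended without any single array of the 2 genotypes other than CARKO 5 (highest adjusted p = 0.2121, without CARPXRKO 4, where the difference was −0.74). It also ended within each slide position, at −0.70 among odd-numbered arrays (adjusted p = 0.6616) and −1.23 among even-numbered ones (adjusted p = 0.1695), and when the 4 arrays of conflicting text were dropped (−0.99, adjusted p = 0.1081). With a replicate block the difference was −0.85 (adjusted p = 0.1428), and with slide position as a block the adjusted p was 0.0590. It did not pass either without background correction, with median centring, with print-tip loess or with the median over spots, at adjusted p from 0.0544 to 0.0986, nor with calibration centring (−1.66, adjusted p = 0.0627) or in the authors' value table (−1.36, adjusted p = 0.2682).

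**Figure D1:**
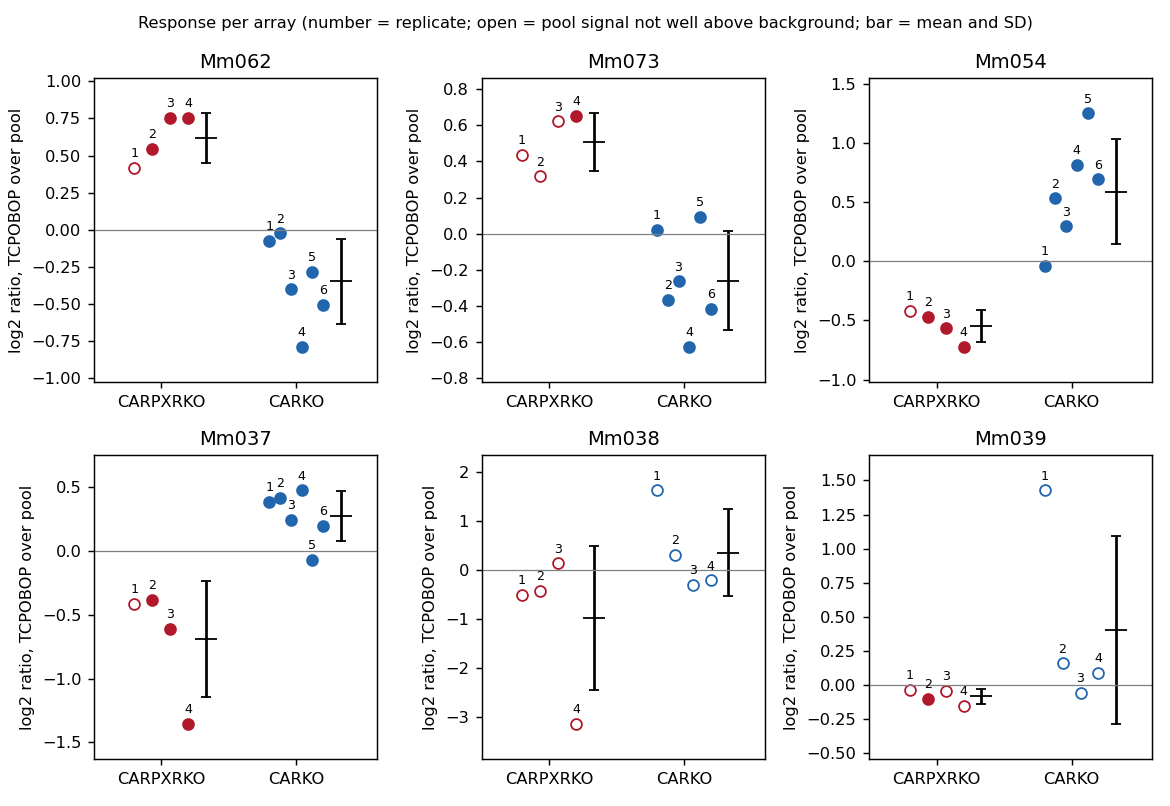
Log2 ratio of TCPOBOP-treated liver over vehicle pool (vertical axis, log2 units) on each CARPXRKO (left, red) and CARKO (right, blue) array for 6 probes. Numbers are replicate numbers, open circles mark arrays whose pool signal was not well above background, and black bars give the mean and SD. The groups do not overlap for Mm062, Mm073, Mm054 and Mm037 and overlap for Mm038 and Mm039.

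Mm038 and Mm039 had high log2 ratios in wild type, with medians of 5.04 for Mm038 and 4.70 for Mm039 over the 6 WT arrays. The pool signal was well above background on none of these arrays for Mm038 and on 1 for Mm039, so the ratios are not measured folds. In the CARPXRKO livers Mm038 had log2 ratios of −0.50, −0.43, 0.13 and −3.15, against 1.62, 0.30, −0.31 and −0.21 on the 4 CARKO arrays that gave a value. The difference was −1.34 ± 0.79 (SE, adjusted p = 0.2846), with a 95% interval of −3.00 to 0.32. CARPXRKO 4 was the lowest and CARKO 1 the highest of these arrays. Without CARPXRKO 4 the difference was −0.62 (adjusted p = 0.6305). Mm039 had log2 ratios of −0.04, −0.10, −0.05 and −0.15 on the CARPXRKO arrays, against 1.43, 0.16, −0.06 and 0.08 on the same 4 CARKO arrays. Its difference was −0.49 ± 0.56 (SE, adjusted p = 0.6423), with an interval of −1.68 to 0.70. Without CARKO 1 it was −0.15 (adjusted p = 0.9446). The pool signal of Mm038 was well above background on none of the 10 arrays and that of Mm039 on 1. The treated signal of Mm038 was so on 1 CARPXRKO and 1 CARKO array, and that of Mm039 on 3 CARPXRKO and 2 CARKO arrays. On CARPXRKO 4 neither channel of Mm038 was well above background. These values are thus not measured folds, and the intervals leave room for differences in either direction.

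Across the 10 probes that were higher in CARPXRKO, the mean response lay above 0 in CARPXRKO (0.16 to 0.65) and below 0 in CARKO (−0.35 to −0.01) for all 10. The 4 CARPXRKO arrays lay above 0 together for 9 of them, whereas the 6 CARKO arrays lay below 0 together for 1, Mm062. Of the 8 lower probes, all had a mean below 0 in CARPXRKO (−0.69 to −0.30), and 7 had a mean above 0 in CARKO, where the means ran from −0.01 to 0.59. The 4 CARPXRKO arrays lay below 0 together for 7 of the 8. Opposite signs of the 2 means were found for 42 of all 82 probes (51.2%). For 16 of the 18 probes the mean was farther from 0 in CARPXRKO than in CARKO. Over all 82 probes the median absolute mean response was also larger in CARPXRKO, at 0.19 against 0.11 in CARKO, so this was not particular to the 18. The counts of arrays on 1 side of 0 were not taken over all 82 probes. These counts describe probes selected on the difference itself and carry no test.

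**Figure D2:**
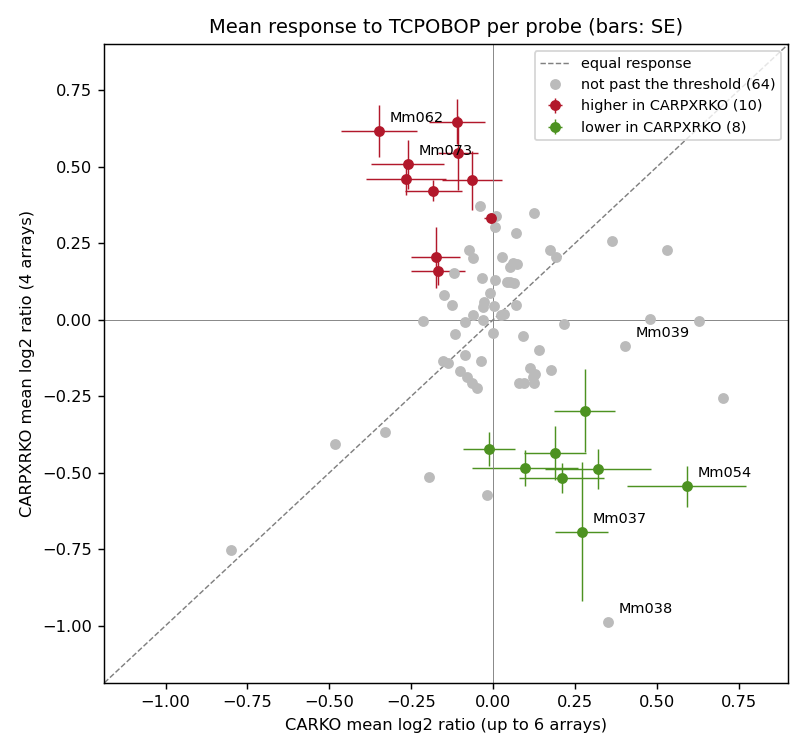
Mean log2 ratio per probe in CARPXRKO (vertical axis, 4 arrays) against CARKO (horizontal axis, up to 6 arrays), for the 82 probes tested. Coloured points passed the threshold (10 higher, 8 lower), bars give SEs, and the dashed line marks equal responses. The higher probes lie in the upper left and the lower ones, with 1 exception by sign, in the lower right.

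The remaining 14 probes past the threshold followed in steps, from 0.76, 0.73 and 0.65 down to 0.33 among the higher ones and from −0.81, −0.73 and −0.62 up to −0.41 among the lower ones. All 10 arrays gave a value for each of the 18. Array ranges did not overlap for 14 of the 82 probes (17.1%), 9 higher (11.0%) and 5 lower (6.10%), and 11 of these 14 were among the 18. The pool signal was well above background on at most 1 of the 4 CARPXRKO arrays for 4 of the 10 higher probes and for none of the 8 lower ones. On the CARKO arrays no probe of the 18 had such a low number. Of the 18 probes, 4 were well above background in both channels on all 10 arrays. These detection counts were not taken over all 82 probes and are not read as a trait of the 18. When the test was restricted to the 54 probes well above background in both channels on at least 3 arrays of each genotype, 5 were higher and 7 lower, and all 12 belonged to the 18.

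**Figure D3:**
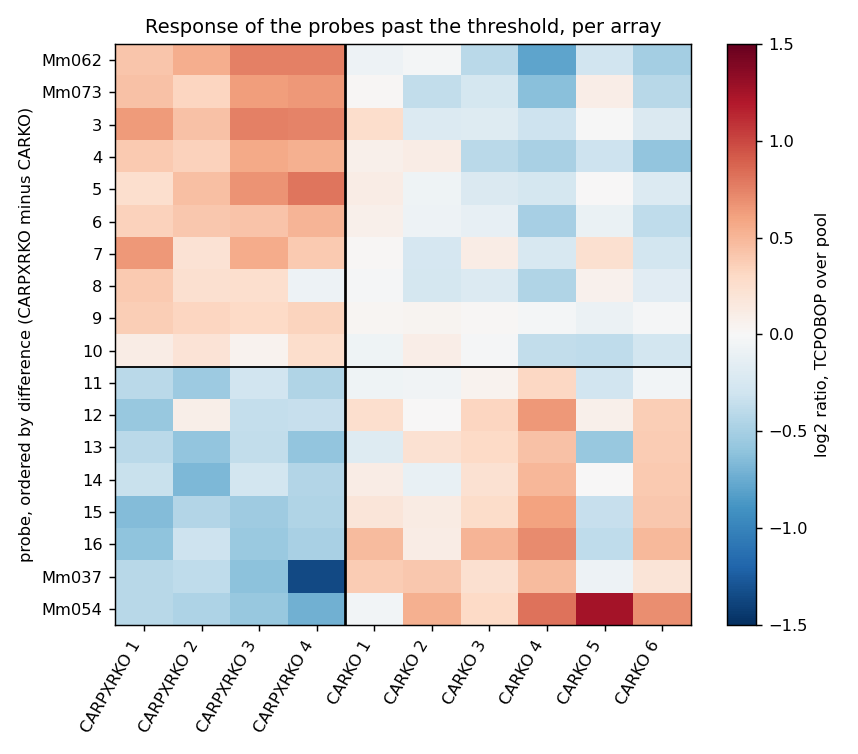
Log2 ratio of treated liver over pool (colour, red above 0 and blue below) of the 18 probes past the threshold (rows, from the largest positive to the largest negative difference, with 4 named) on the 4 CARPXRKO arrays (left of the black line) and the 6 CARKO arrays. CARPXRKO cells share the sign of their block with 1 exception in each, and CARKO columns vary, with CARKO 4 farthest from CARPXRKO in its medians over the higher (−0.41) and the lower probes (0.55).

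Arrays within the groups differed in how alike they were. Across the 82 probes, the 6 pairs of CARPXRKO arrays had Pearson correlations of 0.50 to 0.70. The 15 pairs of CARKO arrays ran from −0.08 to 0.88, with 0.72 to 0.88 among CARKO 3, CARKO 4 and CARKO 6 and at most 0.42 for the other pairs. CARKO 5 correlated at most at 0.24 with another CARKO array, and at 0.42, 0.31, 0.07 and 0.06 with CARPXRKO 1 to 4. Between the genotypes 19 of 24 pairs were below 0 and 5 were below −0.3, the lowest at −0.44. The labels state the same dyes on all arrays and the genotypes had separate pools, so the direction was kept. These correlations are across probes, which share array, pool and dye, and are descriptions.

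The median log2 ratio over the 10 higher probes was 0.40, 0.34, 0.56 and 0.52 on CARPXRKO 1 to 4, and on the CARKO arrays it ran from −0.41 (CARKO 4) to 0.02 (CARKO 1). Over the 8 lower probes it was −0.42, −0.45, −0.45 and −0.47 on CARPXRKO 1 to 4, against −0.18 (CARKO 5) to 0.55 (CARKO 4) on the CARKO arrays. CARKO 5 was the only CARKO array with a negative median over the lower probes, and its SD over probes (0.81) was the highest of the 10 arrays, against 0.20 to 0.41 on the other CARKO arrays and 0.31 to 0.50 on the CARPXRKO arrays. Without CARKO 5, 19 probes passed, of which 17 belonged to the 18. Within probes, the SD over arrays had a median of 0.16 in CARPXRKO and 0.24 in CARKO. It was smaller in CARPXRKO for 57 of 82 probes (69.5%) and for 14 of the 18.

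The ratio of a probe has a treated and a pool part, which were separated by normalizing the single channels (loess, then equal distributions of average intensity across arrays). The resulting levels are log2 intensities and depend on that scaling more than the ratios do. For Mm054 the treated level was 9.88 ± 0.31 in CARPXRKO and 9.91 ± 0.36 in CARKO, whereas the pool level was 10.43 ± 0.40 in CARPXRKO and 9.32 ± 0.11 in CARKO (SD over 4 and 6 arrays). For Mm062 the treated level was 11.48 ± 0.38 in CARPXRKO and 11.22 ± 0.41 in CARKO, and the pool level 10.87 ± 0.23 in CARPXRKO and 11.57 ± 0.25 in CARKO. Both differences of response thus had their larger part in the pool channel. Mm037 had similar parts from both channels, with the treated level lower by 0.51 and the pool level higher by 0.45 in CARPXRKO. For Mm073 the treated level was higher by 0.41 and the pool level lower by 0.35.

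All 10 probes with a higher response had a lower pool level in CARPXRKO than in CARKO, and 4 of the 10 had a higher treated level. All 8 probes with a lower response had a higher pool level in CARPXRKO, and 6 of the 8 had a lower treated level. Among all 82 probes the pool level was lower in CARPXRKO for 40 (48.8%), and the treated level was higher in CARPXRKO for 40 (48.8%). The pool part exceeded the treated part in size for 13 of the 18 probes and for 49 of all 82. Each genotype had a single pool, so the spread of its level over arrays is technical, the error of the pool itself stays in every difference of responses, and a vehicle level that differs with genotype cannot be told apart from a pool that differs by chance. The probes were selected on the difference of the 2 channels, and no test was made of the parts.

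**Figure D4:**
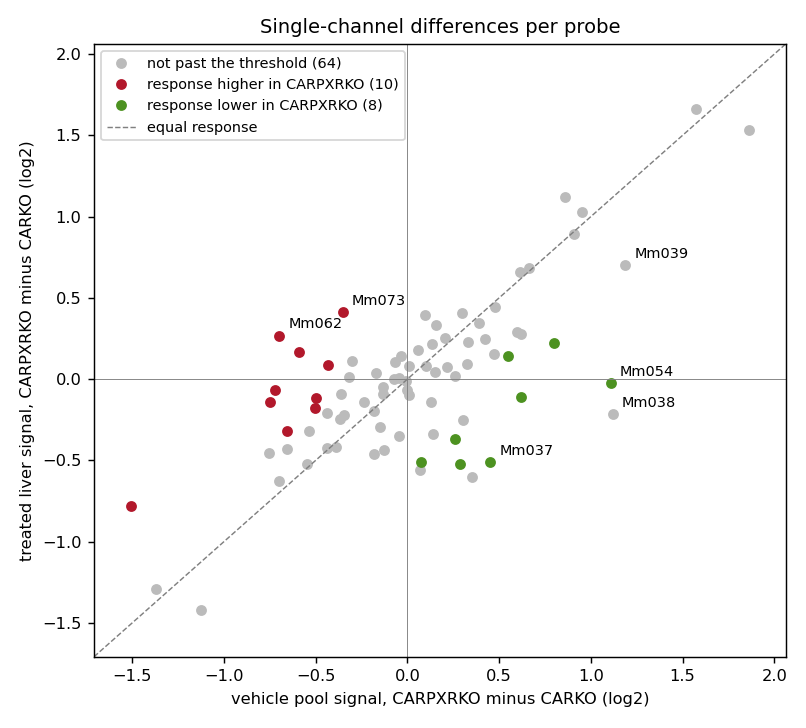
Difference of treated liver signal (vertical axis) against difference of vehicle pool signal (horizontal axis), both CARPXRKO minus CARKO in log2 units, for the 82 probes tested. On the dashed line the responses are equal. Red points (10 probes, response higher in CARPXRKO) lie left of 0 and green points (8 probes, response lower) lie right of 0 on the pool axis.

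PXR loss on a background with CAR was given by PXRKO minus WT, which uses other arrays and other pools. That difference passed the threshold for 3 of 82 probes (3.66%), none of them among the 18. Of the 18 probes, 11 had the same sign in both differences, 7 of the 10 higher and 4 of the 8 lower ones, against 40 of all 82 (48.8%). The median absolute difference over the 18 was 0.64 for CARPXRKO minus CARKO, which selected them, and 0.14 for PXRKO minus WT, and over all 82 probes it was 0.23 for CARPXRKO minus CARKO and 0.21 for PXRKO minus WT. The difference between the 2 effects of PXR loss was tested in the same model. It passed for 10 of 82 probes (12.2%), of which 5 belonged to the 18. This contrast contains the CARPXRKO minus CARKO difference by which the 18 were selected. The overlap, and the values below for probes picked from the 18, are thus in part built in by that selection.

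For Mm062 the PXRKO minus WT difference was 0.24 ± 0.15 (SE, adjusted p = 0.3344), with means of −0.26 ± 0.15 in PXRKO (SD, n = 4) and −0.51 ± 0.22 in WT (SD, n = 6). The effect of PXR loss was higher without CAR than with it by 0.72 ± 0.21 (SE, limma adjusted p = 0.0250). For Mm054 PXRKO minus WT was 0.02 ± 0.19, and the effect of PXR loss was lower without CAR by −1.15 ± 0.27 (SE, adjusted p = 0.0152). The effects of PXR loss on Mm073 and Mm037 were not shown to differ with CAR, at 0.46 ± 0.20 (SE, adjusted p = 0.1423) and −0.85 ± 0.48 (SE, adjusted p = 0.3061). The mean of Mm037 was 0.95 ± 0.36 in PXRKO (SD, n = 4) and 1.07 ± 0.88 in WT (SD, n = 6). The call for Mm062 ended without CARPXRKO 3, without CARPXRKO 4 and with median centring. It also ended when the 4 arrays of conflicting text were dropped (highest adjusted p among these fits = 0.2028). With calibration centring and in the authors' value table it ended too, and the sign was reversed. The call for Mm054 ended in the authors' value table (adjusted p = 0.0882). Within either slide position no probe passed in limma, with 11 probes at an unadjusted p under 0.05 among the odd-numbered arrays and 12 among the even-numbered ones.

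**Figure D5:**
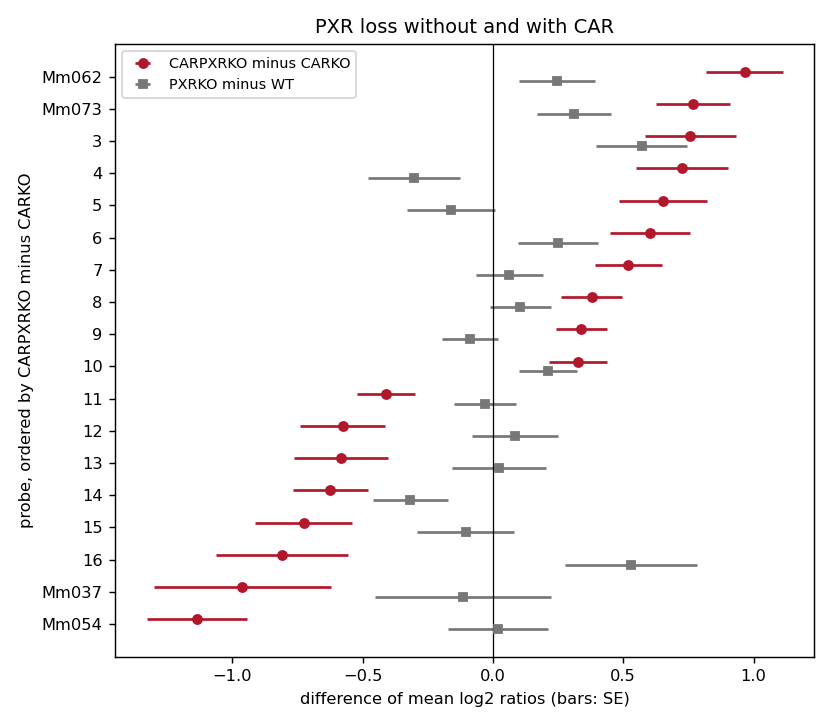
Difference of mean log2 ratios (horizontal axis, bars SE) for CARPXRKO minus CARKO (red circles) and PXRKO minus WT (grey squares) for the 18 probes past the threshold in the first difference, ordered by it, with 4 named. Grey squares lie between −0.32 and 0.57, and none passed the threshold.

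Of the 38 probes outside the main test, 27 had a value on at least 3 CARPXRKO and 3 CARKO arrays and were missing only in the other genotypes. With these, 109 probes were tested and 23 passed, the earlier 18 and 5 more, of which 4 were higher (0.61 to 0.71) and 1 was lower (−0.39). For 3 of these 5 the pool signal was well above background on none of the CARPXRKO arrays. The other 11 probes were not tested.

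The slide position was read from the spot coordinates and split each genotype by odd and even replicate numbers. Among the odd-numbered arrays (2 CARPXRKO, 3 CARKO) no probe passed in limma, with 12 at an unadjusted p under 0.05. Among the even-numbered arrays (again 2 and 3) 5 probes passed, all of them among the 18. All 18 probes kept their direction in both positions. With position as a term in the model 17 of the 18 passed, and Mm037 did not. The labels do not say what a position or a replicate number stands for, nor that each array held another animal, so p-values measure the spread between these arrays, which may be technical in part.

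The scaling mattered for the count. Centred on the calibration control spots in place of loess, the median of all probes was −0.58, 1 probe passed (Mm054, −1.78, adjusted p = 0.00496), and 14 of the 18 kept their sign. The calls of Mm062 and Mm073 ended there, at differences of 0.52 (adjusted p = 0.3348) and 0.16 (adjusted p = 0.6939). In the authors' value table, whose centring is unknown, the median of all probes was −0.26 and 1 of 68 probes passed, again Mm054 (−1.44, adjusted p = 0.0284). Of the 15 probes among the 18 that were tested there, 12 had the same sign. Taken relative to the median of all probes, 18 of 18 kept their direction with calibration centring and 15 of 15 in the authors' table. The smallest of these relative differences was 0.01, in the authors' table. The calls of Mm062 and Mm073 ended in that table too, at 0.84 (adjusted p = 0.3742) and 0.18 (adjusted p = 0.8970).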

How the data were processed

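Intensities per spot (median foreground, local background and its SD, red and green channels) are those of the deposited scanner tables and, per the file headers, are not normalized. The percent of saturated pixels per spot is also deposited, per the file headers. For the image software and the flagging of spots, no source used here gives details. The authors' deposited value table holds log ratios per probe, read as log2 of treated over pool, with unknown centring. It served as an alternative.

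Groups and replicate numbers came from sample titles, and dyes from the labels. Intensities were corrected with normexp (offset 50) and each array was normalized by global loess, giving no weight to control and flagged spots (limma 3.58.1, R 4.3.3). Flagged spots (0 to 210 per array in the 2 genotypes) were dropped, saturated spots kept, and the 3 spots of a probe averaged. The 82 probes with at least 3 values per genotype were tested. One mean per genotype was fitted to all 20 arrays with lmFit and eBayes, and the contrast was adjusted by Benjamini-Hochberg over the 82 probes (threshold 0.05). A spot was well above background if the foreground lay over 2 background SDs above the local background, and a probe when at least 2 of its 3 spots did, flagged spots counting against it. Single-channel levels came from loess and Aquantile normalization. Fits without an array kept the same 82 probes. The pools count as 1 control sample per genotype, so tests leave out the spread between vehicle animals. Dyes were not swapped. A dye bias shared by the arrays cancels in the differences, whereas a bias that differs between the genotypes does not. Before normalization the ratio controls differed in level between CARPXRKO and CARKO arrays.

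Identifiers were named by rule: the 2 largest differences past the threshold in each direction, and Mm038 and Mm039. The arrays, probes and tests were chosen with earlier results of these data known.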

Additional observations from a re-analysis of the deposited data

Results flagged for a closer look

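Mm039 on CARKO 1 stood far from the other CARKO arrays, at a log2 ratio of 1.43 against −0.06 to 0.16 on the 3 others with a value (Dixon's gap test; 12 groups of values were examined and about 1 in 20 is flagged by chance). Its pool signal was not well above background there.

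In the test given above, the estimated effect of PXR loss without CAR differed from that with CAR for Mm062, by 0.72 on the log2 scale. For Mm054 it differed by −1.15. That contrast contains the difference by which both probes were picked, and each genotype was taken to have a single pool. The value for Mm062 changed sign with calibration centring and in the authors' value table.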

How the results depend on the processing

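The 18 probes differing between CARPXRKO and CARKO kept their direction, where tested, under every alternative run except calibration centring and the authors' table. The count lay between 12 and 23 under 15 other alternatives that left out no CARPXRKO or CARKO array. It was 28 of 120 with flagged spots kept, 31 with array weights, 1 with calibration centring, 1 in the authors' table, 0 among odd-numbered arrays (limma, 12 at an unadjusted p under 0.05), 5 among even-numbered ones and 10 when the 4 arrays of conflicting text were dropped. Leaving out 1 array at a time gave 13 to 19, and 12 of the 18 passed each time. The 10 probes whose PXR effect differed with CAR became 18 with flagged spots kept, 26 with array weights, 54 (all lower; median of all probes −1.40) with calibration centring, 7 when those 4 arrays were dropped, and 0 in limma in the authors' table, among odd-numbered and among even-numbered arrays (12, 11 and 12 at an unadjusted p under 0.05). Leaving out 1 array gave 6 (without CARPXRKO 3) to 16 (without CARKO 5). For Mm062 that difference changed sign to −0.99 with calibration centring (adjusted p = 0.1139), and to −0.32 in the value table of the authors (adjusted p = 0.7094). The causes were not tested.

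Replicate numbers are shared by the titles, but deviations of same-numbered CARPXRKO and CARKO arrays correlated at only −0.17 to 0.20 and no CARPXRKO array matched its own number best. With a replicate block the count was 17, 16 of them among the 18, and Mm037 did not pass (adjusted p = 0.1428). Pool signals near background on the CARPXRKO arrays limit the ratios of weak probes.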
